A study of Mus musculus with 12 samples.

Results

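The proteasome genes described here were all genes whose symbol begins with Psm, a letter from a to g and a number, on probe sets that carry 1 gene symbol. This rule matched 49 genes, of which 47 were measured above the level limit and entered the fits, among 14550 genes in all. Of the 47, 45 encode proteasome subunits or factors that assemble, activate or inhibit the complex, and 2 only share the symbol, *Psmc3ip* and *Psme3ip1*. The 2 genes below the limit were *Psma8*, an alpha subunit known from testis, and *Psmb11*, the catalytic subunit of the thymus. *Psma4* lay only on probe sets that carry several symbols and was therefore not matched. The symbols alone matched the genes, and the level limit on their own signals set which of them were fitted.

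Inguinal white adipose tissue (WAT) was taken from 6 R6/2 mice and from 6 wild type (WT) littermates, all males of 12 weeks on the C57BL/6 background. R6/2 mice model Huntington's disease and carry a transgene in which a fragment of the human huntingtin promoter drives exon 1 of that gene with a long CAG repeat. Each mouse had its own Affymetrix Mouse Gene 2.0 ST array, and signals are given as log2 values, so that 1 unit stands for a change of 2 times. A signal can be compared between mice for 1 gene, but not between genes, whose probes differ.

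The proteasome degrades proteins that carry ubiquitin chains. Its 20S core is a barrel of alpha and beta rings, of which the beta subunits encoded by *Psmb5*, *Psmb6* and *Psmb7* cut the substrate. The 19S regulatory particle caps the barrel, binds ubiquitin, removes it and unfolds the substrate with a ring of ATPases. In lymphocytes and other cells of the immune system, and in most cells after exposure to interferon gamma, *Psmb8*, *Psmb9* and *Psmb10* take the places of *Psmb5*, *Psmb6* and *Psmb7* to form the immunoproteasome, whose peptides are presented on class I molecules. *Psme1* and *Psme2* encode the 2 subunits of the 11S activator, which interferon gamma also induces.

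The inguinal pad contains a lymph node, and B cell transcripts differed widely between the mice. *Cd79a*, a chain of the B cell receptor, had log2 signals of 5.94 to 11.49 (median 11.21) in R6/2 mice and of 6.24 to 11.98 (median 10.72) in WT mice. R6/2 mice 3 and 4 and WT mouse 4 lay between 5.94 and 6.30, and the other 9 mice between 10.14 and 11.98. The 15 measured lymphocyte markers, other than *Cd79a*, separated the same mice, with a mean of 5.41 to 5.64 in the 3 mice and of 7.70 to 9.85 in the other 9. All 15 rose with *Cd79a* in limma (adjusted p at most 0.000185), so that *Cd79a* stood for lymphocyte RNA in these arrays. Adipocyte markers had a mean of 10.8 to 11.7 in all 12 mice, and skeletal muscle markers of 5.66 to 10.6, highest in R6/2 mouse 3 and WT mouse 5. In whole tissue, fewer cells of a type and less RNA per cell cannot be told apart.

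*Psmb8*, *Psmb9*, *Psmb10* and *Psme1* rose with *Cd79a*, and *Psmc6* had the smallest p of the proteasome genes that fell. *Psmb5* is the constitutive counterpart of *Psmb8*. The promoter sequences of these 6 genes are shown. Each is the 250 bases before the RefSeq transcript start in GRCm38.p6, in the direction of transcription. Capitals mark matches to 4 sets of letters searched on both strands: GAAA followed after 2 bases by a second GAAA (the interferon-stimulated response element, ISRE), TTCNNNGAA (the gamma-activated site, GAS), TGACNNNGC (the antioxidant response element, ARE, read by *Nfe2l1* and *Nfe2l2*) and CCAAT.
Psmb8 promoter (chr17:34197945-34198194, plus strand): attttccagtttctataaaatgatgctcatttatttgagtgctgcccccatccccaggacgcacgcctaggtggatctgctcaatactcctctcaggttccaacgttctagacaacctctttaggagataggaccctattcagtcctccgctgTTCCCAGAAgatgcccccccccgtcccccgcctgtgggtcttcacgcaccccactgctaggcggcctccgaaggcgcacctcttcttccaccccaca
Psmb9 promoter (chr17:34187331-34187580, minus strand): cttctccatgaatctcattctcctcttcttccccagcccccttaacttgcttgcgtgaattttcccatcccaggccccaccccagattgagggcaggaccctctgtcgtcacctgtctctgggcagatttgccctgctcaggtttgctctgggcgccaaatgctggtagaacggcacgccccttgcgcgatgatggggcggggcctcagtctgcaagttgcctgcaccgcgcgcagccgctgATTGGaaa
Psmb10 promoter (chr8:105938393-105938642, minus strand): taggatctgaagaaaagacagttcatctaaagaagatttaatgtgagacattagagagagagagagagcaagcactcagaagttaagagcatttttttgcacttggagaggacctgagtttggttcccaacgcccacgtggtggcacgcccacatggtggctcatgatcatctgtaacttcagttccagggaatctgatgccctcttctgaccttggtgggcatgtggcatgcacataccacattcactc
Psme1 promoter (chr14:55578244-55578493, plus strand): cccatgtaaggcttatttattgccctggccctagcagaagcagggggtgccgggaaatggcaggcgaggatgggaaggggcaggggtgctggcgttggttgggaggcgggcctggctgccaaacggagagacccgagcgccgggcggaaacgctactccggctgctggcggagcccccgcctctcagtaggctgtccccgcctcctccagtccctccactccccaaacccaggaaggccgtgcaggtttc
Psmb5 promoter (chr14:54617996-54618245, minus strand): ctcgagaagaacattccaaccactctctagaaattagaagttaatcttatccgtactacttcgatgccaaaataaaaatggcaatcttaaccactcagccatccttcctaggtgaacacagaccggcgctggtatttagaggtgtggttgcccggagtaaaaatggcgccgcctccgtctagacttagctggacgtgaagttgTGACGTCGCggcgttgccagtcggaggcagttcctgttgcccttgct
Psmc6 promoter (chr14:45329574-45329823, plus strand): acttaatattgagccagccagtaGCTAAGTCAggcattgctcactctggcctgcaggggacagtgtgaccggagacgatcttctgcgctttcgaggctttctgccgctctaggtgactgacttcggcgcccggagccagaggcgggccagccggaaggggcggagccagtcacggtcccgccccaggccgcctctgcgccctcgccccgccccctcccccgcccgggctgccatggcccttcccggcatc

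Of the 47 measured genes, 40 had a promoter window of 300 bases, from 250 before the start to 50 after it. In the *Psmb8* window a GAS match lay at position -97, with base -1 next to the start, and 8.3% of the 32851 windows of all genes held one. The *Psmb9* window held only CCAAT, on the opposite strand at -8 (37.4% of all windows), and the *Psmb10* window held none of the 4. In *Psme1* an ISRE match on the opposite strand, TTTCGCTTTC, began 10 bases after the start, outside the bases printed (3.44% of all windows). *Psmb5* had an ARE match at -47 and *Psmc6* an ARE match on the opposite strand at -227, a motif that 12.4% of all windows held. Among the windows of the constitutive 20S and 19S subunits, 4 of 26 (15.4%) held an ARE match, 2 (7.69%) an ISRE match and 1 (3.85%) a GAS match. The 2 ISRE matches lay on the opposite strand, in *Psmb3* at -163 and in *Psmd4* at -80. *Psmd4*, whose sequence is not printed, had the steepest fall with *Cd79a* of the 47 genes. Of the 3 immunoproteasome windows, 0 held an ISRE match. Such matches are letters in a window and were not set against the arrays. In the RefSeq gene order *Psmb9*, *Tap1*, *Psmb8* and *Tap2* are neighbours on chromosome 17, within the class II region of the major histocompatibility complex, and *Psme1* and *Psme2* lie on chromosome 14 with only *Emc9* between them.

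The comparison of R6/2 with WT mice asked whether transcripts of the proteasome differ in WAT that expresses mutant huntingtin. None of the 47 genes was called. In limma, 0 of 47 had an adjusted p under 0.05, as did 0% of all 14550 genes, and 0 of 47 had an unadjusted p under 0.05, against 5.84% of all genes. The SAM method, at a q of 5%, called 0 of 47 and 0.591% of all genes, and the smallest q among the 47 was 48.9%. In 0 of 47 genes did the 2 genotypes fail to overlap, which was so for 0.385% of all genes.

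The differences were small and their intervals short. Over the 47 genes, the log2 difference (R6/2 minus WT) lay between -0.17 and 0.22, with a median of 0.033 beside 0.014 over all tested genes, and 34 were above 0 (72.3%, against 54.2% of all tested genes) and 13 below. With cyclic loess on top of RMA, 28 were above 0. Most of the constitutive subunits among the 47 varied together between the mice, so these signs are not separate results. For 45 of the 47 the 95% interval from limma excluded a change of 1.5 times in either direction. The 2 exceptions were *Psmb5* (-0.24 to 0.67) and *Psmb8* (-0.27 to 0.60), for which differences up to 1.59 times remained within the interval.

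**Figure D1:**
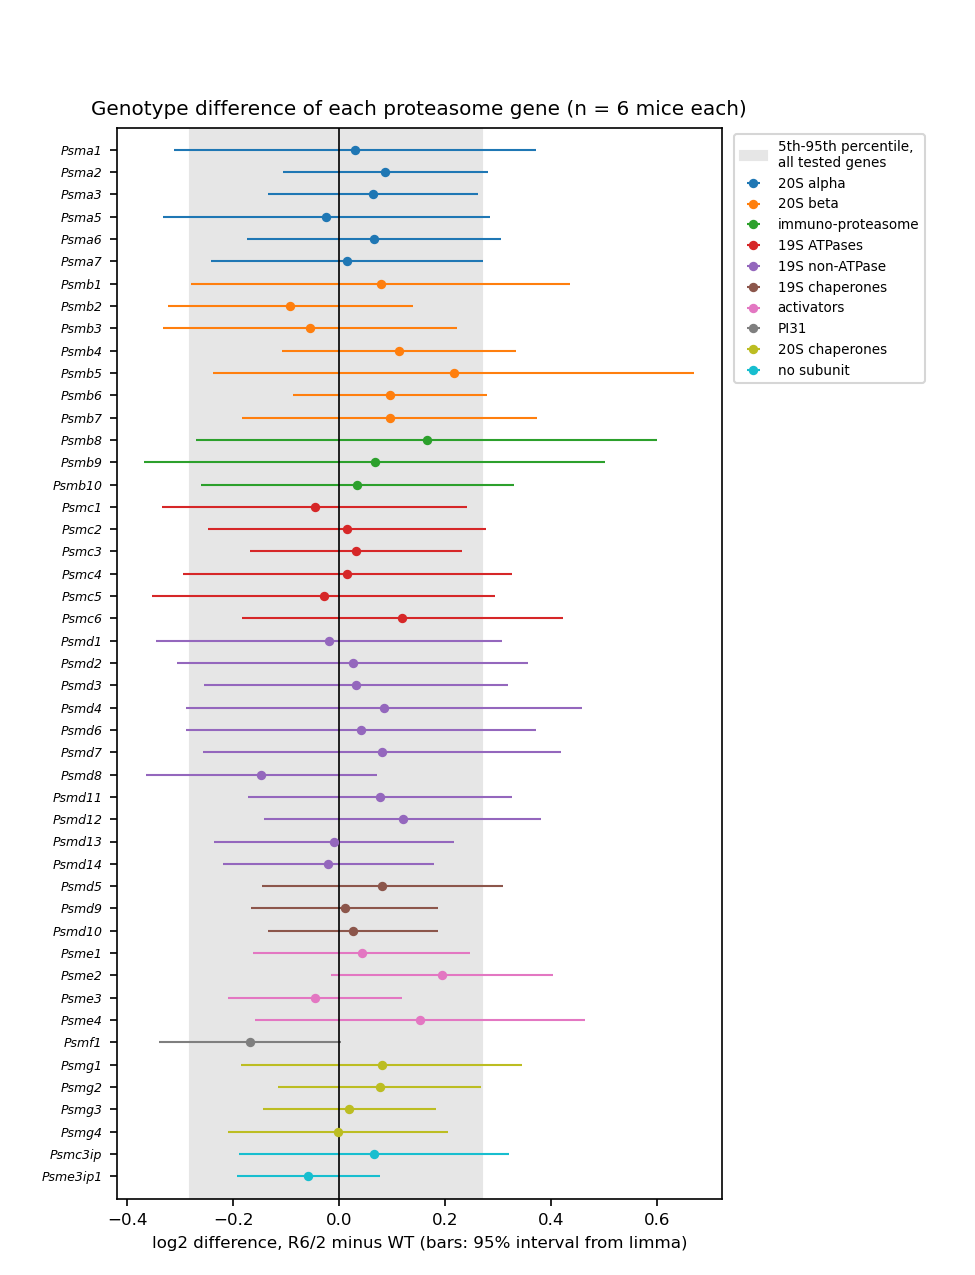
Log2 difference of each of the 47 proteasome genes, R6/2 minus WT (x axis), by gene (y axis, coloured by role). Points are limma estimates over 6 R6/2 and 6 WT mice, bars are 95% intervals and the grey band holds the 5th to 95th percentile of the estimates of all tested genes. Every bar crosses 0, and all estimates lie between -0.17 and 0.22.

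Among the immunoproteasome subunits, *Psmb8* had a log2 signal of 8.09 to 9.27 (median 8.74) in R6/2 mice and of 8.07 to 8.90 (median 8.60) in WT mice. The difference was 0.16 (SE 0.20, limma adjusted p 0.951). *Psmb9* had 7.25 to 8.48 (median 8.01) in R6/2 and 7.50 to 8.28 (median 7.86) in WT mice, a difference of 0.067 (SE 0.20, adjusted p 0.987). In both genes the R6/2 mice spanned nearly all of the WT range, and the lowest and highest R6/2 mice were those with little and much *Cd79a*. *Psmb10* had 8.32 to 9.03 (median 8.55) in R6/2 and 8.35 to 8.93 (median 8.61) in WT mice, a difference of 0.033 (SE 0.14, adjusted p 0.991).

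The constitutive catalytic subunits overlapped between the genotypes as well. *Psmb5*, which has the chymotrypsin-like activity, had 8.09 to 9.05 (median 8.27) in R6/2 and 7.63 to 8.84 (median 8.12) in WT mice, a difference of 0.22 (SE 0.21, adjusted p 0.930). The highest of all mice was R6/2 mouse 3, at 9.05, and the next R6/2 mouse had 8.31. *Psmb6*, with the caspase-like activity, had 8.67 to 8.97 (median 8.72) in R6/2 and 8.40 to 8.80 (median 8.70) in WT mice, a difference of 0.095 (SE 0.084). *Psmb7*, with the trypsin-like activity, had 9.50 to 10.06 (median 9.79) in R6/2 and 9.23 to 9.94 (median 9.73) in WT mice, a difference of 0.094 (SE 0.13). Of the other core genes, the 4 constitutive beta genes *Psmb1* to *Psmb4* differed by -0.093 to 0.11. Among the 6 alpha genes, whose differences were -0.025 to 0.087, *Psma2* was nearest to a call, at 9.05 to 9.39 (median 9.14) in R6/2 and 8.88 to 9.34 (median 9.09) in WT mice (adjusted p 0.939).

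In the 19S particle, the 6 ATPase genes differed by -0.047 to 0.12 and the 11 non-ATPase genes by -0.15 to 0.12. *Psmc6*, an ATPase of the base, had 9.39 to 10.10 (median 9.69) in R6/2 and 9.30 to 9.92 (median 9.60) in WT mice, a difference of 0.12 (SE 0.14, adjusted p 0.950). *Psmd8*, a subunit of the lid, was the 19S gene nearest to a call, with 9.66 to 10.06 (median 9.80) in R6/2 and 9.64 to 10.18 (median 9.99) in WT mice. Its difference was -0.15 (95% interval -0.37 to 0.070, adjusted p 0.890), and the groups overlapped. The 3 chaperones that assemble the 19S base, *Psmd5*, *Psmd9* and *Psmd10*, differed by 0.0099 to 0.081. *Psmd5*, the nearest to a call of these, had 8.52 to 9.05 (median 8.72) in R6/2 and 8.41 to 8.95 (median 8.63) in WT mice.

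Activators and the inhibitor gave the smallest p values of the 47. *Psmf1*, which encodes PI31, an inhibitor of the 20S core in vitro, had 8.12 to 8.43 (median 8.23) in R6/2 and 8.15 to 8.51 (median 8.44) in WT mice. Its difference of -0.17 (95% interval -0.34 to 0.0022) had an unadjusted limma p of 0.0526 and an adjusted p of 0.852. Only 2 of 6 R6/2 mice lay below all WT mice, and WT mouse 6 lay with the R6/2 mice at 8.15. *Psme2* had 7.08 to 7.24 (median 7.16) in R6/2 and 6.65 to 7.27 (median 6.94) in WT mice, a difference of 0.19 (95% interval -0.015 to 0.40, unadjusted p 0.0662, adjusted p 0.861). It has a near copy, *Psme2b*, whose transcripts its probes may also bind, so that its value is uncertain. *Psme1*, which encodes the partner of *Psme2*, differed by 0.042 (SE 0.094, adjusted p 0.980), with 9.62 to 10.04 (median 9.91) in R6/2 and 9.65 to 10.04 (median 9.82) in WT mice.

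The 4 chaperones that build the 20S core, *Psmg1* to *Psmg4*, differed by -0.0030 to 0.080. *Psmg2* was nearest to a call, at 7.82 to 8.07 (median 7.87) in R6/2 and 7.63 to 8.11 (median 7.79) in WT mice (adjusted p 0.950). The 2 genes that only share the symbol differed by 0.065 (*Psmc3ip*) and -0.059 (*Psme3ip1*).

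Markers of other cells differed between the genotypes in estimate, and none had an adjusted p under 0.05. All 14 macrophage markers were lower in R6/2 mice in estimate, with a median log2 difference of -0.48. Of the 14, 5 had an unadjusted p under 0.05 in limma, against 5.84% of all tested genes. The macrophage mean was 7.12 to 8.28 in R6/2 and 7.74 to 8.53 in WT mice. All 17 skeletal muscle markers were higher in estimate, with a median of 1.00, and their mean was 5.66 to 10.6 in R6/2 and 5.68 to 10.4 in WT mice. Of the 11 adipocyte markers, 10 were lower in estimate, with a median of -0.14 and 2 unadjusted p under 0.05 (5.84% of all tested genes). The adipocyte mean was 10.8 to 11.7 in R6/2 and 10.9 to 11.7 in WT mice. *Lep*, which encodes leptin, had the smallest p of the 11, at 8.70 to 10.97 (median 9.21) in R6/2 and 10.23 to 11.57 (median 10.75) in WT mice (difference -1.26, unadjusted p 0.00335, adjusted p 0.601). With the *Cd79a* signal, the lymphocyte mean, the muscle mean, the macrophage mean or the adipocyte mean in the fit, 0 of 47 proteasome genes were called, and likewise without the 3 mice low in *Cd79a*. With the adipocyte mean the differences of *Psmb8*, *Psmb9* and *Psmb10* were -0.047, -0.18 and -0.11, opposite in sign to those given above.

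**Figure D2:**
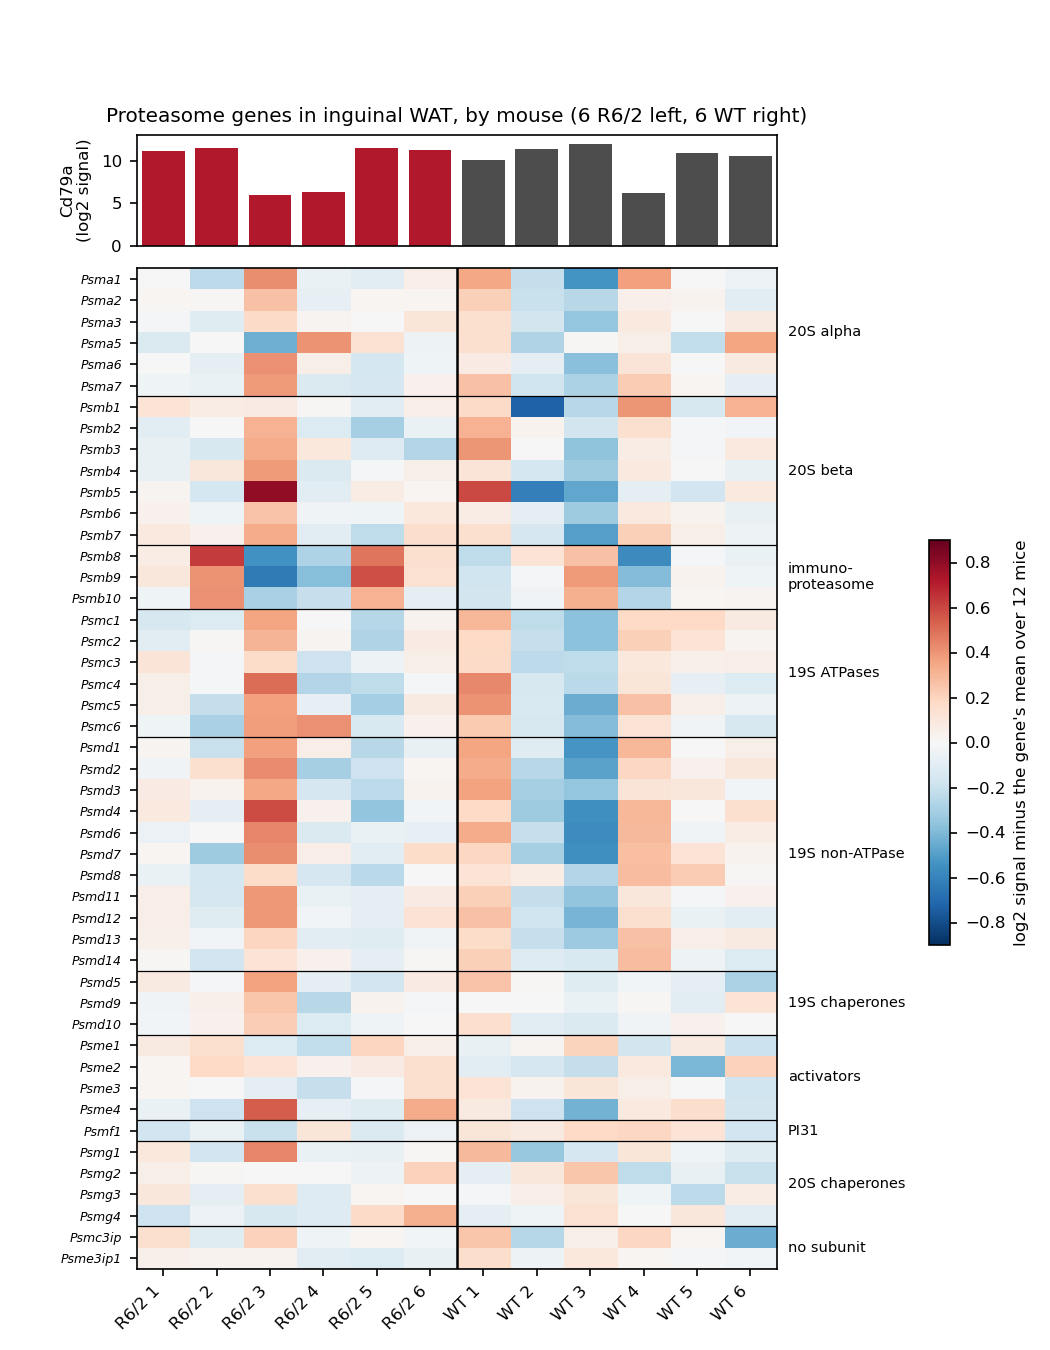
Log2 signal of the 47 proteasome genes in each mouse minus the gene's mean over all 12 mice (colour), with genes as rows grouped by role and mice as columns, 6 R6/2 on the left and 6 WT on the right. The bars on top give the Cd79a signal (log2). Most 20S and 19S genes are high in R6/2 3, WT 1 and WT 4 and low in WT 3 and WT 2. The 3 immunoproteasome genes are lowest in R6/2 3, WT 4 and R6/2 4, and high in R6/2 2, R6/2 5 and WT 3.

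The proteasome genes differed between mice within a genotype, and most of the constitutive subunits did so together. Of the 30 measured constitutive genes of the 20S core and the 19S particle, 20 were highest of all 12 mice in R6/2 mouse 3, and 28 had that mouse among the highest 3. WT mouse 1 was among the highest 3 in 26 genes and WT mouse 4 in 23. At the other end, 23 genes were lowest in WT mouse 3, which was among the lowest 3 in 29, and WT mouse 2 was among the lowest 3 in 23. *Psma5* went against this order, being lowest in R6/2 mouse 3 at 5.23, near the level limit.

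The mean of the 11 non-ATPase genes of the 19S particle shows the size of this variation, at 8.81 to 9.33 in R6/2 mice and 8.57 to 9.22 in WT mice. The mean of the 3 immunoproteasome genes was 7.89 to 8.86 in R6/2 mice and 7.97 to 8.70 in WT mice. It was lowest in R6/2 mouse 3 and next lowest in WT mouse 4, which were high in the constitutive genes. R6/2 mouse 4, the third with little *Cd79a*, had the third lowest immunoproteasome mean at 8.09, but a non-ATPase mean of 8.91, below the mean of its genotype.

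To ask which proteasome genes followed the lymph node content of the pad, each gene was fitted on *Cd79a* with genotype in the model. A slope is given in log2 units of the gene per log2 unit of *Cd79a*. All 3 immunoproteasome subunits and *Psme1* rose with *Cd79a*, and 7 constitutive subunits of the 20S core and the 19S particle fell. The risers were 4 of 47 (8.51%), against 17.5% of all tested genes that rose at an adjusted p under 0.05. The fallers were 7 of 47 (14.9%), against 19.5% of all tested genes, so that neither count was above its background. The median slope was -0.042 over the 47 genes and -0.014 over all tested genes.

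*Psmb8* had the steepest slope of the 47, 0.143 (SE 0.022, adjusted p 0.000482 in limma). Its signal was 8.07 to 8.36 in the 3 mice low in *Cd79a* and 8.41 to 9.27 in the other 9, without overlap. *Psmb9* had a slope of 0.141 (SE 0.023, adjusted p 0.000715), with 7.25 to 7.51 in the 3 mice and 7.72 to 8.48 in the other 9, again without overlap. *Psmb10* had a slope of 0.079 (SE 0.022, adjusted p 0.0148), with 8.32 to 8.41 in the 3 mice and 8.45 to 9.03 in the other 9, also without overlap. This split rests on the same *Cd79a* values as the slopes. The share of all tested genes that separate in this way was not counted. *Psme1* had a slope of 0.054 (SE 0.015, adjusted p 0.0166), and its 3 low mice, at 9.62 to 9.71, overlapped the other 9, at 9.65 to 10.04. Leaving out 1 mouse kept the calls of *Psmb8* and *Psmb9* in each case, whereas the call of *Psmb10* was lost without R6/2 mouse 3 (adjusted p 0.0507) and that of *Psme1* without R6/2 mouse 4 (adjusted p 0.0528).

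The other activator genes did not share the call of *Psme1*. The slope was -0.017 (SE 0.022, adjusted p 0.545) for *Psme2*, 0.021 for *Psme3*, which encodes the nuclear activator, and -0.054 for *Psme4*, which encodes PA200. Values for *Psme2* were 7.10 to 7.19 in the 3 mice low in *Cd79a* and 6.65 to 7.27 in the other 9.

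**Figure D3:**
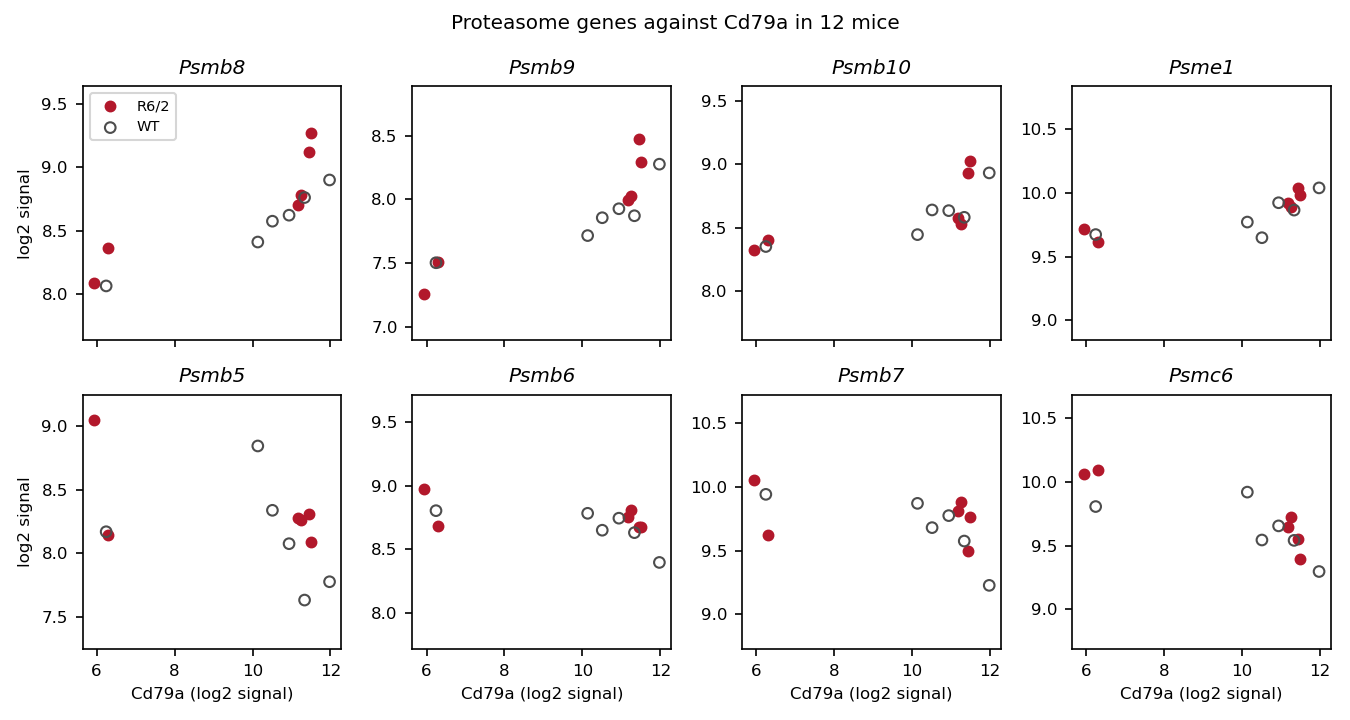
Log2 signal of 8 proteasome genes (y axis, the same span in every panel) against that of Cd79a (x axis) in 6 R6/2 mice (filled) and 6 WT mice (open). Psmb8, Psmb9, Psmb10 and Psme1 in the upper row rise to the right, with slopes of 0.054 to 0.143, and Psmb5, Psmb6, Psmb7 and Psmc6 in the lower row run downward, with slopes of -0.031 to -0.086. In the lower row only Psmc6 was called in limma, and Psmb5, Psmb6 and Psmb7 were not (adjusted p 0.210, 0.169 and 0.167).

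All 30 constitutive 20S and 19S genes had a slope below 0, from -0.096 to -0.0051 with a median of -0.049 (29 of 30 with cyclic loess on top of RMA), and 7 of the 30 (23.3%) were called. Of all tested genes, 59.1% had a slope below 0 and 19.5% were called falling, so that the share called was near its background. As most of the 30 varied together between the mice, the 30 signs are not separate results. *Psmc6* had the smallest p, with a slope of -0.086 (SE 0.021, adjusted p 0.00719), at 9.81 to 10.10 in the 3 mice low in *Cd79a* and 9.30 to 9.92 in the other 9. *Psmd4*, a ubiquitin receptor of the 19S particle, had a slope of -0.096 (SE 0.028, adjusted p 0.0199), at 8.74 to 9.29 in the 3 mice and 8.15 to 8.88 in the other 9. *Psmd1*, the large scaffold subunit of the base, had a slope of -0.083 (SE 0.025, adjusted p 0.0237), and *Psma6*, an alpha subunit, of -0.060 (SE 0.019, adjusted p 0.0278). In all 4 genes the 3 mice low in *Cd79a* overlapped the other 9. The other 3 fallers were *Psmd7*, *Psma1* and *Psmd14*, the last of which encodes the deubiquitinase of the lid (adjusted p 0.0406, 0.0441 and 0.0495). None of the 3 constitutive catalytic genes was called, with slopes of -0.071 (*Psmb5*), -0.031 (*Psmb6*) and -0.047 (*Psmb7*).

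Single mice moved the number of fallers among the 47. It was 1 without R6/2 mouse 3, where 14.5% of all tested genes fell, and 21 without R6/2 mouse 4, where 17% did. These are the 2 R6/2 mice low in *Cd79a*. It was 3 without R6/2 mouse 5 or WT mouse 4 (14.4% and 15.1% of all genes), 4 without R6/2 mouse 2, WT mouse 2 or WT mouse 3 (16.9%, 17.6% and 15.5%), and 11 without WT mouse 1 (20.5%). *Psmc6* was called in each case (adjusted p at most 0.0269), whereas *Psmd4* and *Psmd1* lost their calls without R6/2 mouse 3 or WT mouse 4, and *Psma6* without R6/2 mouse 3 or R6/2 mouse 5.

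No proteasome gene was called for a difference in slope between the genotypes. For the product of genotype and *Cd79a*, 0 of 47 had an adjusted p under 0.05, as did 0% of all tested genes, and 0 of 47 had an unadjusted p under 0.05, against 2.65% of all genes. The smallest unadjusted p was 0.0545 (*Psmb1*).

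The calls moved when the 3 mice low in *Cd79a* were left out. Without them, *Cd79a* spanned 10.14 to 11.98 in 9 mice, and 0 of 47 genes rose at an adjusted p under 0.05, against 15.6% of all tested genes. The slopes of the 4 risers were steeper but not called, at 0.31 for *Psmb8* (adjusted p 0.0539), 0.30 for *Psmb9* (0.0520), 0.26 for *Psmb10* (0.108) and 0.18 for *Psme1* (0.0882). In the same 9 mice 21 of 47 genes fell (44.7%), against 12% of all tested genes, and all 21 were among the 30 constitutive 20S and 19S genes (70%). Most of the 30 vary together, so the 21 calls are not separate results. WT mouse 1 had the lowest *Cd79a* of the 9 and was among the highest 3 mice in 26 of the 30 genes. WT mouse 3 had the highest *Cd79a* and was lowest in 23. Whether the calls rest on these mice was not tested.

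Those 21 were 4 of 6 alpha genes, 3 of 7 beta genes, 5 of 6 ATPase genes and 9 of 11 non-ATPase genes. *Psmb5* had the steepest slope in the 9 mice, -0.59 (SE 0.12, adjusted p 0.00619), with WT mouse 1 at 8.84 and WT mice 2 and 3 at 7.63 and 7.78. *Psmd6*, a subunit of the lid, and *Psmd1* each had a slope of -0.44 (adjusted p 0.00183 and 0.00189). Of the assembly chaperones, activators and the inhibitor, 0 of 12 were called in the 9 mice, with slopes of -0.26 to 0.20.

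Markers of other cells were set against *Cd79a* as well. Of the 14 macrophage markers, 2 rose with *Cd79a* in the 12 mice (*Lyz2* and *Timd4*) and 1 fell (*Cd163*). Of all tested genes, 17.5% rose and 19.5% fell, so that neither count was above its background. Of the 11 adipocyte markers, 8 fell with *Cd79a* in the 12 mice and 0 rose (19.5% and 17.5% of all tested genes), and 5 fell in the 9 mice (12%). With the adipocyte mean as a further term, 1 proteasome gene rose (*Psmb8*, slope 0.143, adjusted p 0.0291) and 0 fell, against 3.99% and 0.289% of all tested genes. Of the 17 muscle markers, 0 rose and 0 fell in the 12 mice (17.5% and 19.5% of all tested genes). With the muscle mean as a further term, 4 proteasome genes rose and 7 fell in the 12 mice, against 16.8% and 19.7% of all tested genes. In the 9 mice 0 rose and 16 fell with that term, against 13.1% and 9.88%.

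**Figure D4:**
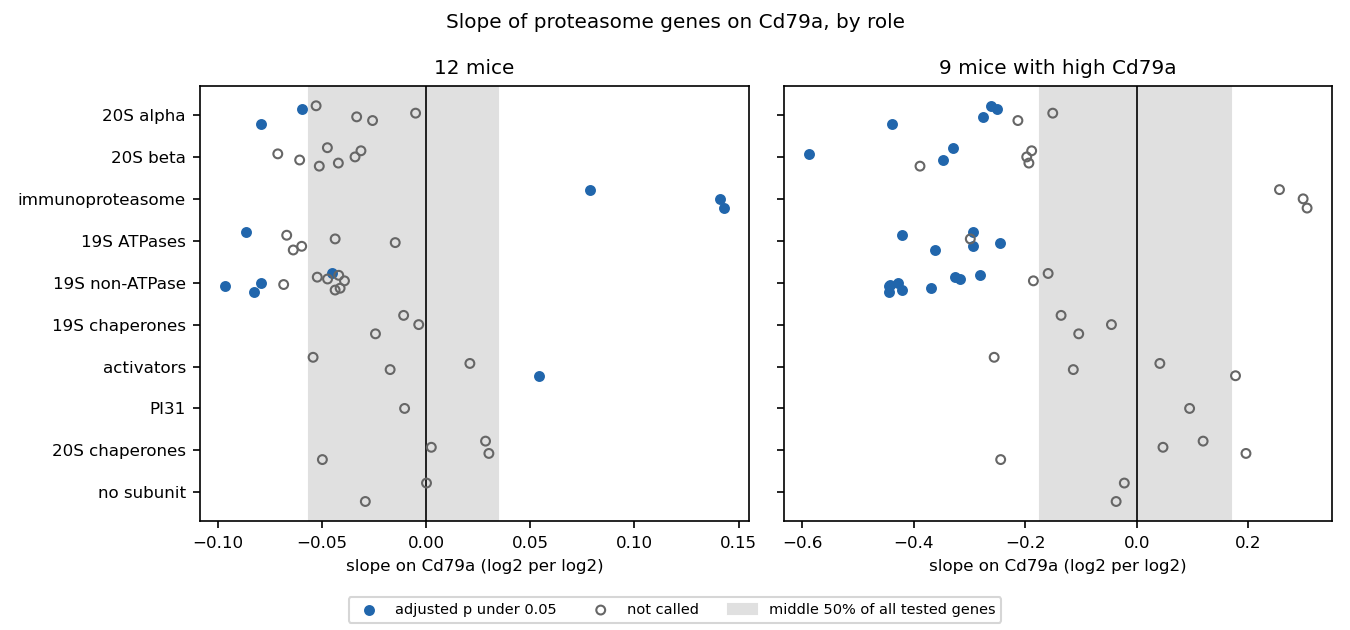
Slope of each proteasome gene on Cd79a (x axis, log2 per log2 unit, each panel with its own scale) by role (y axis), in all 12 mice (left) and in the 9 mice with high Cd79a (right). Filled points have an adjusted p under 0.05 in limma, open points do not, and the grey band holds the middle 50% of all tested genes. On the left, 4 genes are called above 0 and 7 below. On the right, 21 are called, all of them 20S and 19S genes below 0.

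Within an array, the inducible subunit was set against the constitutive one whose place it takes, as a log2 difference that has no meaning of its own between probe sets but can be compared between mice. *Psmb8* minus *Psmb5* was -0.96 to 1.18 (median 0.47) in R6/2 mice and -0.43 to 1.13 (median 0.39) in WT mice. *Psmb9* minus *Psmb6* was -1.72 to -0.20 (median -0.77) in R6/2 and -1.30 to -0.12 (median -0.81) in WT mice. *Psmb10* minus *Psmb7* was -1.73 to -0.57 (median -1.23) in R6/2 and -1.59 to -0.30 (median -1.09) in WT mice. All 3 were lowest in R6/2 mouse 3, and the genotype means differed by -0.051, -0.028 and -0.061, each far less than the SD within a genotype of 0.40 to 0.73.

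For *Psmb9* and *Psmb6*, the 3 mice low in *Cd79a* lay below all other mice, at -1.72 to -1.18 against -1.07 to -0.12. The 2 groups overlapped for *Psmb8* and *Psmb5*, at -0.96 to 0.21 and -0.43 to 1.18, and for *Psmb10* and *Psmb7*, at -1.73 to -1.21 and -1.43 to -0.30. These groups rest on the *Cd79a* values themselves, and the share of gene pairs that separate without overlap was not counted.

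**Figure D5:**
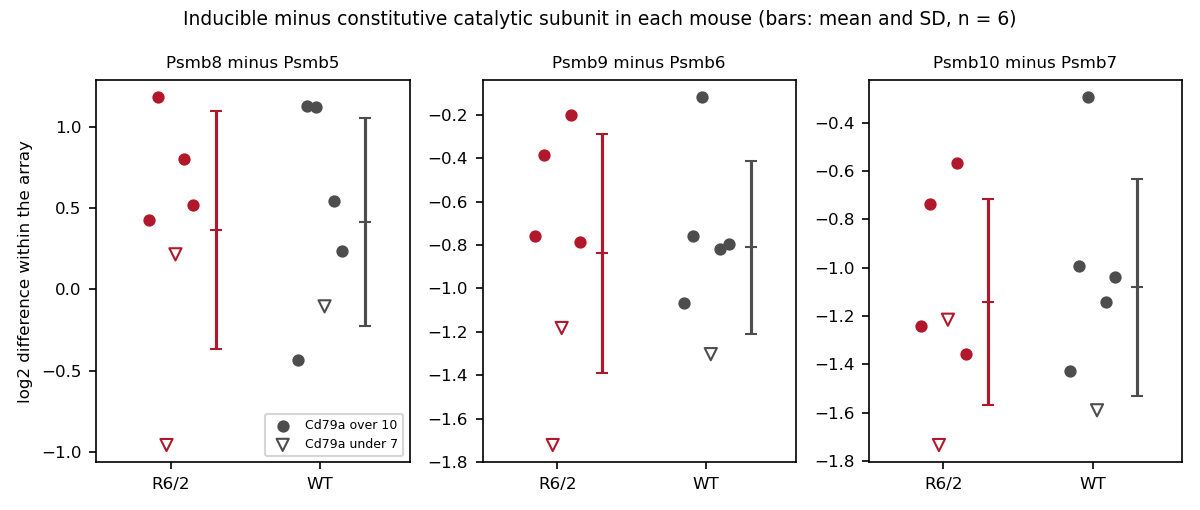
Log2 difference between the inducible and the constitutive catalytic subunit within each array (y axis) for 3 pairs, with 6 R6/2 mice on the left and 6 WT mice on the right of each panel. Triangles are the 3 mice with a Cd79a signal under 7, and bars give the mean and SD of each genotype. The genotypes overlap in every panel, and R6/2 mouse 3 is lowest in each.

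Proteins that work with the proteasome were described from a list of 32 genes, of which 20 were measured. Between genotypes 0 of 20 were called, as were 0% of all tested genes. An unadjusted limma p under 0.05 was found for 2 of 20, against 5.84% of all tested genes. The median log2 difference was 0.033, beside 0.014 over all tested genes. Against *Cd79a*, 0 of 20 rose (17.5% of all tested genes) and 4 fell in the 12 mice, near the 19.5% of all tested genes. These 4 were *Txnl1*, a protein bound to the 19S particle (slope -0.096, adjusted p 0.00692), *Usp14*, a deubiquitinase (-0.087, adjusted p 0.00818), and the ubiquitin shuttles *Ubqln2* (-0.043) and *Rad23b* (-0.050). In the 9 mice with high *Cd79a* 7 of 20 fell, against 12% of all tested genes, among them *Nfe2l1*, the factor that induces proteasome genes when the complex is impaired (slope -0.37, adjusted p 0.00563), *Pomp*, the maturation factor of the 20S core (-0.36, adjusted p 0.00870), and *Usp14* (-0.36, adjusted p 0.00851).

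Genes of class I antigen presentation were also set against *Cd79a*. Of 12 measured, 6 rose with *Cd79a* and 0 fell (17.5% and 19.5% of all tested genes), with the smallest p for *Nlrc5*, the transactivator of class I genes (slope 0.20, adjusted p 8.76e-05), and *Tap1*, a chain of the peptide transporter and the neighbour of *Psmb8* and *Psmb9* (0.28, adjusted p 0.00014). *Tap1* had 8.04 to 10.23 (median 9.58) in R6/2 and 8.61 to 10.21 (median 9.32) in WT mice, a difference of -0.015 (adjusted p 0.998). In the 9 mice with high *Cd79a*, *Tap1* (slope 0.73, adjusted p 0.00128) and *Nlrc5* (0.47, adjusted p 0.0095) were the 2 class I genes of 12 called, near the 15.6% of all tested genes that rose.

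A list on interferon held genes of its receptors, of kinases that signal from them and of transcription factors of the pathway. Of its 12 measured genes, 9 rose with *Cd79a* and 0 fell (17.5% and 19.5% of all tested genes), and 8 rose in the 9 mice (15.6%). Receptor and kinase genes were among the 9, so the count does not describe interferon-induced genes alone. *Irf7* was not among them (slope -0.024, adjusted p 0.623 in limma). *Irf8*, a factor of B cells and myeloid cells, had the smallest p (slope 0.27, adjusted p 1.49e-05), and *Irf1*, a factor known to induce immunoproteasome genes, had a slope of 0.14 (adjusted p 0.00214). Between genotypes 0 of 12 were called (0% of all tested genes), and 2 of 12 had an unadjusted limma p under 0.05 (5.84% of all tested genes). The smallest p was that of *Irf7*, at 7.19 to 8.11 (median 7.66) in R6/2 and 7.90 to 8.40 (median 8.18) in WT mice (difference -0.52, SE 0.16, unadjusted p 0.00698, adjusted p 0.632).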

How the data were processed

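RNA of inguinal WAT from 12 mice, 6 R6/2 and 6 WT, was hybridised to 1 Affymetrix Mouse Gene 2.0 ST array each. The authors kept RNA above an integrity limit, used Affymetrix Expression Console 1.1.2 for a joint RMA normalization, and the deposited values are log2 signals, 1 per probe set. Values ran from 0.658 to 13.9 over 41345 probe sets, and array medians from 5.75 to 5.87. Precision is limited by the number of arrays.

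Genes were named through the platform annotation, in which 23521 probe sets have 1 symbol, 1820 several and 16004 none. Probe sets with 1 symbol were kept if either genotype mean exceeded a level limit, the median of the probe sets that have no symbol (5.44 in R6/2, 5.45 in WT), and were merged by the median per gene to 14550 genes. *Psma5*, *Psmc2* and *Psmg2* had 2 probe sets each, of which 1 was above the limit for *Psma5* and *Psmg2*. Both were used for *Psmc2*, and their genotype differences were 0.040 and -0.011.

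limma 3.58.1 in R 4.3.3 (lmFit, eBayes) was fitted to genotype (R6/2 minus WT), to genotype and *Cd79a*, and to both with their product, with Benjamini-Hochberg adjustment over all tested genes and a threshold of 0.05. The fits on *Cd79a* left out *Cd79a* itself and had 14549 genes. SAM, the study's test, was run as an alternative with 100 regroupings of the arrays. The fits were also run on simulated data with independent normal noise for each gene and with added changes of known size. In the arrays genes vary together, which the simulated data lacked, so that run does not show how reliable the calls are. Alternatives covered the level filter, probe sets, normalization, variance model, array weights, covariates, the replicate number and leaving out mice.

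Named genes were the inducible and constitutive catalytic subunits, *Psme1*, *Psme2*, the gene with the smallest genotype p in each role, the 4 with the smallest p in each direction of the *Cd79a* slope, and up to 4 per list. *Psmd6*, *Psmd7*, *Psma1*, *Psmd14*, *Psma5*, *Psmb1*, *Psme3*, *Psme4* and *Psmc3ip* were named after their values were seen. The genes and lists were chosen with earlier results of these data known. Promoter sequences are from RefSeq (GRCm38.p6). Plots were drawn with Python 3.11.15 and matplotlib 3.10.9.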

Additional observations from a re-analysis of the deposited data

Results flagged for a closer look

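In 94 groups of 6 mice (47 genes in 2 genotypes), a mouse stood apart from the other 5 of its genotype by Dixon's test in 7, where chance flags about 1 in 20 groups. Of these, 5 were R6/2 mouse 3, in constitutive subunits of the 20S core and the 19S particle. Its log2 signal was 9.39 for *Psma2* (next highest R6/2 mouse 9.15), 9.46 for *Psma6* (9.11), 9.45 for *Psma7* (9.10), 9.05 for *Psmb5* (8.31) and 8.61 for *Psmd6* (8.17). R6/2 mouse 3 also had the lowest *Cd79a* signal, 5.94, the highest muscle mean, 10.6, and the lowest macrophage mean, 7.12, of the 12 mice, and the part of these in the 5 values was not tested. *Psmg2* was high in R6/2 mouse 6, at 8.07 (next highest 7.91). *Psmf1* was low in WT mouse 6, at 8.15 (next lowest WT mouse 8.40).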

How the results depend on the processing

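No proteasome gene was called between the genotypes under any alternative run, and the median log2 difference (R6/2 minus WT) stayed between -0.0725, with the macrophage mean as a covariate, and 0.0990, with the adipocyte mean. Leaving out 1 mouse at a time gave medians of -0.00074 to 0.086. The sign of a genotype difference turned for *Psmg2* without the level filter (-0.0128), *Psmb10* with cyclic loess (-0.000594), *Psmc6* (-0.021), *Psmd4* (-0.029) and *Psma6* (-0.0351) with array weights, and *Psmb5* (-0.13), *Psmd5* (-0.0895), *Psmc6* (-0.0725), *Psma2* (-0.030), *Psmd4* (-0.071) and *Psma6* (-0.031) with the macrophage mean, and *Psmb8* (-0.047), *Psmb9* (-0.18), *Psmb10* (-0.11), *Psme1* (-0.071) and *Psmd1* (0.15) with the adipocyte mean. It also turned for *Psmc6* (-0.012) and *Psma6* (-0.00599) without the 3 mice low in *Cd79a*. With 1 mouse left out, the differences ran from -0.043 to 0.20 for *Psmb9*, -0.046 to 0.10 for *Psmb10*, -0.025 to 0.16 for *Psmd4*, -0.13 to 0.050 for *Psmd1* and -0.011 to 0.10 for *Psma6*. None of these was called, and the cause of the turns was not tested.

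The count of genes that fell with *Cd79a*, 7 in the fit reported, where 19.5% of all tested genes fell, was 4 without the level filter (12.7%), 14 with centred arrays (26.3%), 3 with cyclic loess (15.8%), 12 with the lymphocyte mean in place of *Cd79a* (22.9%), 4 with the macrophage mean (19.1%), 21 without the 3 mice low in *Cd79a* (12%) and 16 there with the muscle mean (9.88%), 0 with the adipocyte mean (0.289%), 1 in R6/2 mice alone (9.51%) and 0 in WT mice alone (0.165%), and 1 to 21 with 1 mouse left out (14.4% to 20.5%). The count that rose, 4 in the fit reported, where 17.5% of all tested genes rose, was 0 without the 3 mice, with the muscle mean (13.1%) or without it (15.6%), 1 with the adipocyte mean (3.99%), 2 in R6/2 mice alone (13.2%) and 0 in WT mice alone (1.88%), and 3 to 4 with 1 mouse left out (13.6% to 17.8%). The single-genotype fits have 6 mice each. All 30 constitutive slopes were below 0 with centred arrays and 29 of 30 with cyclic loess.

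Slopes turned in sign for *Psme3ip1* with centred arrays (-0.011), array weights (-0.00211), the lymphocyte mean (-0.00111), 9 mice (-0.022), 9 mice with the muscle mean (-0.036) and the adipocyte mean (-0.00339), for *Psmf1* in 9 mice (0.095) and with the muscle mean there (0.14), and for *Psme2* in R6/2 mice alone (0.0041). With 1 mouse left out they ran from -0.043 to 0.00028 for *Psmd5*, -0.027 to 0.0037 for *Psmf1* and -0.0061 to 0.0071 for *Psme3ip1*. The fits with the adipocyte mean, the muscle mean in 9 mice and the genotype fit in 9 mice were chosen after seeing the data.

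Mice of the 2 genotypes share replicate numbers in the labels. Deviations of same-numbered mice correlated between -0.79 and 0.78, and 1 R6/2 mouse of 6 correlated best with its own number, so the numbers were not taken as pairs. With the number as a replicate block, 0 genes were called for genotype, 25 fell with *Cd79a* and 3 rose (16.8% and 17.9% of all tested genes), and the slopes of *Psmf1* (0.038) and *Psme3ip1* (-0.000534) turned in sign.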
